A study of Sus scrofa with 3 samples.

Results

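The sugar and monocarboxylate transporters described here are the genes of 4 solute carrier families, SLC2, SLC5, SLC13 and SLC16, in the kidney of Wuzhishan pigs. They were chosen by name, as every row of the deposited count table whose symbol is one of those family names followed by A and a number, and this gave 41 of the 34570 rows: 11 of SLC2, 11 of SLC5, 5 of SLC13 and 14 of SLC16. All pigs were males of 6 to 7 months on a diet high in fat and cholesterol, so no animal on an ordinary diet entered the data. The groups were intact pigs (IM), castrated pigs (CM) and castrated pigs with testosterone replacement (CMT). Each group's 3 pigs contributed equal amounts of kidney RNA to a pool, which left 1 library per group and no measure of the spread between pigs. Testosterone dose and time since surgery are not given in the sources used here.

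These families handle much of what the nephron reclaims from the filtrate. SLC5 proteins couple uptake of glucose, other sugars, lactate, vitamins or inositol to sodium, mostly at the brush border of the proximal tubule. Of the SLC2 family, SLC2A1 and SLC2A2 let sugars leave down their gradient at the basolateral side, and others are apical or intracellular. SLC13 proteins take up sulfate or citrate and other dicarboxylates with sodium. SLC16 proteins move lactate, ketone bodies, thyroid hormone, aromatic amino acids or creatine across membranes, several of them together with a proton. SLC5A2 works in the early proximal tubule and SLC5A1 in its late part, and members of a family often divide their work along the tubule in this way.

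The libraries held 16459771 (IM), 18503537 (CM) and 13601475 (CMT) counts, of which the 41 genes took 0.410%, 0.383% and 0.391%. Raw counts of the pools therefore differ with depth as well. Levels are CPM, that is, counts scaled to library size, here with TMM factors, and a gene entered the comparisons when its mean over the libraries reached 1 CPM, which 15472 genes did. The ratio of scaled counts of 2 libraries is given with its exact 95% interval in brackets, which covers counting error only, and a call of higher or lower requires the whole interval to lie beyond 2-fold. No p-value can be given with 1 library per group, and every difference below is one between pools without a replicate check. Proximal tubule markers outside the 4 families were present in every pool. The early segment list of 8 genes summed to 7945, 8294 and 7804 CPM, in the order IM, CM and CMT that is kept below. In that list 0 of 8 were called in any comparison, and the genes lay on both sides of 1 in CM over IM. SLC4A4 was at 0.644, SLC6A19 at 0.741, SLC22A12 at 0.848 and SLC34A3 at 0.937. SLC34A1 and LRP2 were at 1.08, SLC22A8 at 1.15 and CUBN at 1.17.

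Of the 41 transporters 33 passed the filter, and 7 of these were called in at least 1 comparison. CM against IM gave the most calls of transporters. Against IM, CM had 4 transporters called higher (SLC5A8, SLC5A10, SLC13A4 and SLC16A3) and 3 called lower (SLC16A6, SLC16A10 and SLC16A13). Over all compared genes the same rule called 1.2% higher and 1.52% lower, 2.71% in either direction, while the 7 of 33 transporters make 21.2%. The families were chosen with earlier results of these data known, so this share and those below are descriptive and test nothing. SLC5A8 reached the filter through its level in CM (0.121, 25.9 and 2.34 CPM), and without it the count is 6 of 32. The transporters had a median level of 38.5 CPM and all compared genes one of 14.2 CPM. Higher counts give narrower intervals, and the part of level in these shares was not tested. By the size of the log2 fold, computed with a prior count of 2, the median transporter lay at 0.40 and the median gene at 0.22. The median signed log2 fold was 0.11 over the transporters and -0.01 over all compared genes. In 23 of the 33 the whole interval lay within 2-fold, 69.7% beside 78.3% of all compared genes. The 7 came from 3 families: 2 of 9 compared members of SLC5, 1 of 5 of SLC13 and 4 of 11 of SLC16, with 0 of 8 of SLC2.

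The comparisons with CMT gave fewer calls of transporters. CMT against CM had 1 transporter called lower, SLC5A8, and 0 higher, beside 1.11% and 1.84% of all compared genes (2.95% in either direction, against 3.03% of the transporters). The median size of the log2 fold was 0.44 for transporters and 0.23 for all compared genes. CMT against IM had SLC5A8 and SLC13A4 called higher and 0 lower, beside 0.905% and 0.595% of all compared genes (1.5% in either direction, against 6.06% of the transporters), with medians of 0.25 and 0.19 for the size of the log2 fold. The interval lay within 2-fold for 22 transporters in CMT against CM (66.7%, beside 76.4% of all compared genes) and for 27 in CMT against IM (81.8%, beside 77.8%). SLC5A8 reached the filter through CM. Without it 32 transporters are compared, none of them called in CMT against CM and SLC13A4 alone in CMT against IM. The 3 comparisons share libraries and are not independent of one another.

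**Figure D1:**
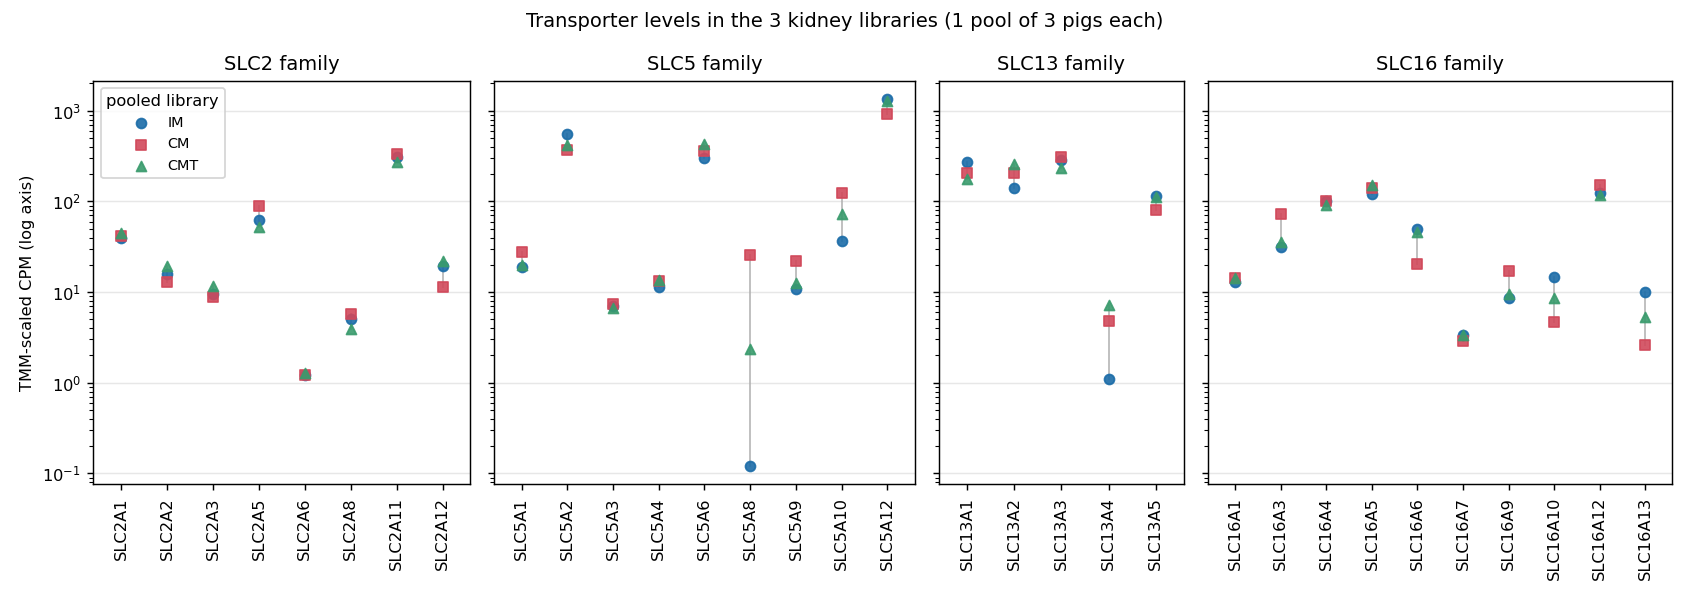
Level of the compared transporters named in the text in each pooled library, as TMM-scaled CPM on a log axis, with 1 panel per family and a grey line from the lowest to the highest library. The markers of most genes nearly overlap, whereas those of SLC5A8 and SLC13A4 are far apart, with IM lowest at 0.121 and 1.09 CPM.

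**Figure D2:**
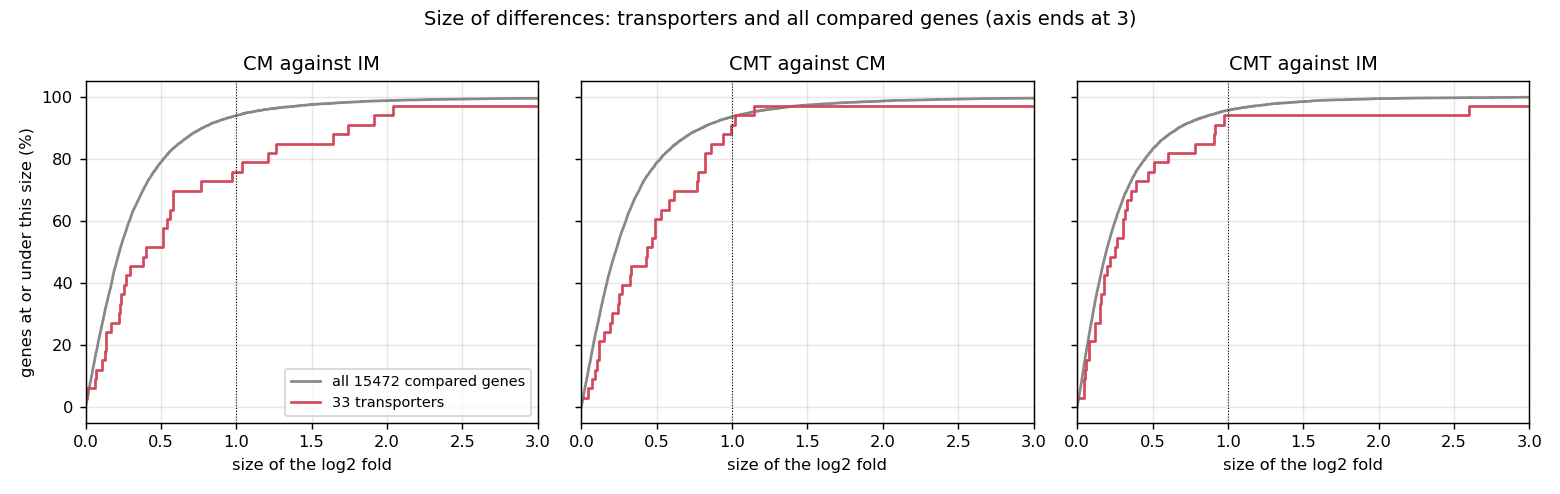
Share of genes (vertical axis, percent) whose log2 fold is at or under a given size (horizontal axis), for the 33 compared transporters in red and all 15472 compared genes in grey. In CM against IM the red curve runs to the right of the grey curve, with medians of 0.40 and 0.22; SLC5A8 lies beyond the end of the axis at 3 in all 3 comparisons.

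The monocarboxylate carriers of the SLC5 family are SLC5A8 and SLC5A12, which take lactate, pyruvate and short-chain fatty acids back from the filtrate with sodium; SLC5A8 has the higher affinity of the pair and SLC5A12 the lower. SLC5A8 gave 2 counts in IM against 489 in CM and 31 in CMT, or 0.121, 25.9 and 2.34 CPM. It was nearly absent from the intact pool, highest in the castrated pool and low in the replaced pool. The ratio of CM to IM was 214 (59.0 to 1773), a wide interval because it rests on 2 counts in IM. CMT was lower than CM by 11.0-fold (7.68 to 16.4) and still above IM, with a ratio of 19.4 (4.93 to 167). SLC5A8 was the single transporter called in all 3 comparisons, a pattern of calls (higher, lower, higher) that 0.0905% of all compared genes showed.

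SLC5A12 ran the other way by a smaller amount. It gave 22131 counts in IM against 17389 in CM and 17075 in CMT, or 1337, 919.9 and 1290.1 CPM, so that CM was the lowest pool and the others were near each other. CM was below IM by 1.45-fold (1.42 to 1.48), CMT was above CM by 1.40-fold (1.37 to 1.43), and CMT was below IM by 1.04-fold (1.02 to 1.06), none of them a call. The affinity pair therefore differed in direction between CM and IM, with SLC5A8 called higher and an interval for SLC5A12 that lay below 1 and within 2-fold.

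Among the sodium-coupled sugar carriers, SLC5A10 stood out. It transports mannose and fructose in the kidney cortex and gave 612 counts in IM against 2345 in CM and 961 in CMT, or 37.0, 124 and 72.6 CPM. CM was called higher than IM by 3.36-fold (3.07 to 3.67). The CMT pool lay between them, below CM by 1.71-fold (1.58 to 1.84) and above IM by 1.96-fold (1.77 to 2.18), with neither ratio called. In RefSeq's table SLC5A10 overlaps FAM83G, with 502, 696 and 477 counts, and GRAP, with 48, 93 and 51, neither of them called. SLC5A9, a related carrier of mannose and fructose, gave 178 counts in IM against 420 in CM and 166 in CMT. CM over IM came to 2.07 (1.73 to 2.48) and was not called, because the interval reaches below 2. CMT was close to IM at 1.17 (0.939 to 1.45).

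The glucose carriers SLC5A2 and SLC5A1 lay on opposite sides of 1 in CM over IM, both within 2-fold. SLC5A2, which takes up most filtered glucose in the early proximal tubule and is the target of the gliflozin drugs, gave 9137 counts in IM against 6974 in CM and 5583 in CMT. Its level was 552, 369 and 422 CPM, lowest in CM, where it was below IM by 1.496-fold (1.45 to 1.54). CMT stayed below IM by 1.31-fold (1.27 to 1.35). SLC5A1, the high-affinity glucose carrier of the late proximal tubule and the gut, gave 18.9, 28.0 and 19.9 CPM and was highest in CM, with CM over IM at 1.48 (1.28 to 1.71) and CMT over IM at 1.06 (0.892 to 1.25). SLC5A4, the next gene to SLC5A1 in RefSeq's gene order and a low-affinity glucose carrier in the pig, gave 11.3, 13.2 and 13.6 CPM, and all 3 of its intervals held 1, with the ratio farthest from 1 in CMT over IM, at 1.20 (0.976 to 1.49). The families contain similar genes, and how the counting assigned shared reads is unknown; RefSeq's table also lists the name SLC5A1 as a synonym of SLC5A10.

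The other measured SLC5 members carry no sugar fuel. SLC5A6, which takes up biotin and pantothenate, gave 305, 365 and 434 CPM and was lowest in IM, with CM over IM at 1.20 (1.15 to 1.24) and CMT over IM at 1.42 (1.37 to 1.48). SLC5A3, the sodium-coupled inositol carrier through which medullary cells gather an osmolyte, gave 6.95, 7.30 and 6.72 CPM, and its 3 ratios all had intervals that held 1 and stayed within 2-fold. Neither gene was called.

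Late proximal tubule markers were read beside these values, since SLC5A1, SLC5A8, SLC5A9 and SLC5A10 are described from that part of the nephron or from the cortex at large. Of the marker list without transporters of the 4 families, 4 genes were compared and 1 was called. SLC22A7, an organic anion transporter, gave 18 counts in IM against 154 in CM and 36 in CMT, with CM called above IM by 7.49-fold (4.59 to 12.98) and CMT called below CM by 2.995-fold (2.07 to 4.43). SLC3A1, a subunit of the cystine carrier, gave 427, 370.1 and 459 CPM, its partner SLC7A9 gave 93.3, 118 and 100.3 CPM, and SLC7A13 gave 1.99, 1.69 and 1.28 CPM, none of them called. The list summed to 524, 498 and 564 CPM, nearly all of it from SLC3A1 and SLC7A9. The sum therefore follows these genes and says little about SLC22A7 or SLC7A13. None of the listed genes with deposited counts was at 0 in all libraries. In pooled tissue, fewer cells of a type and less RNA per cell cannot be told apart, and the part of segment composition in the SLC5 values was not tested.

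**Figure D3:**
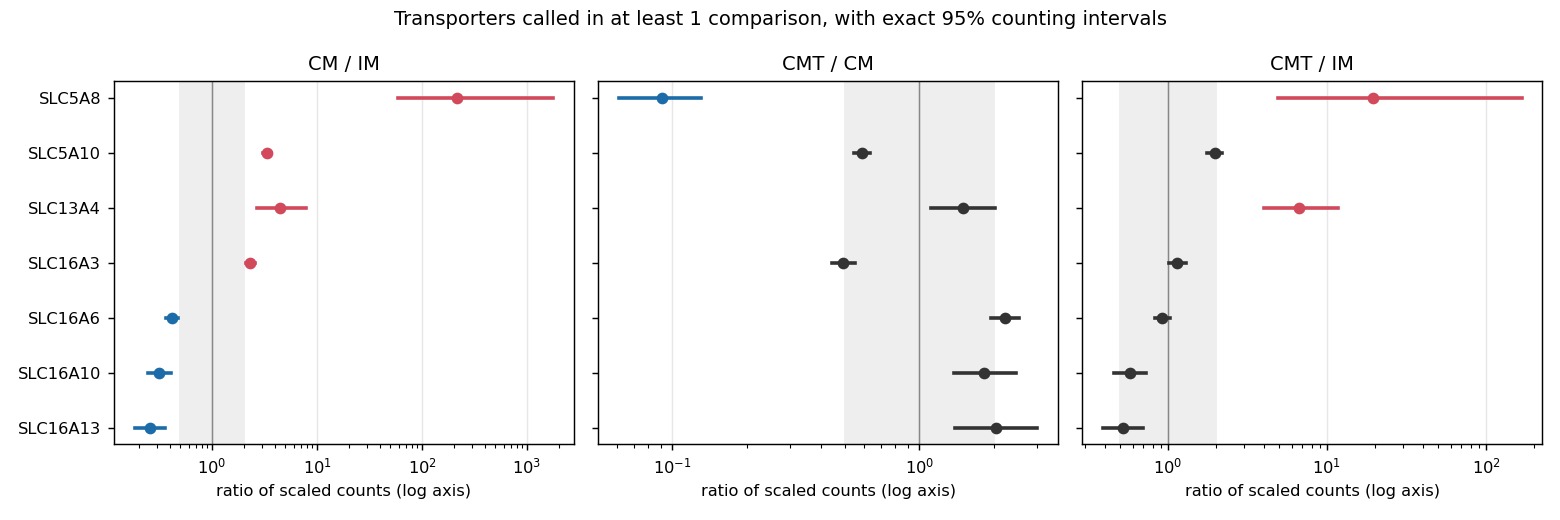
Ratio of scaled counts (dot) with its exact 95% counting interval (line) for the 7 called transporters, on log axes that differ between the 3 panels; grey shading spans 2-fold either way, red is called higher and blue called lower. The SLC5A8 interval in CM over IM spans 59.0 to 1773, and in CMT over CM SLC5A8 is the single coloured gene.

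The facilitative sugar carriers of SLC2 gave no call in any comparison. The genes of the glucose exit path stayed within 2-fold. SLC2A2, the basolateral glucose carrier of the early proximal tubule, gave 261 counts in IM against 242 in CM and 260 in CMT, or 15.8, 12.8 and 19.6 CPM, with CMT over CM at 1.53 (1.28 to 1.84). SLC2A1, the widespread glucose carrier found basolaterally further along the tubule, gave 39.8, 41.5 and 45.1 CPM, and CM over IM came to 1.04 (0.940 to 1.16). SLC2A3, a high-affinity carrier best known from neurons and blood cells, gave 9.54, 8.73 and 11.8 CPM.

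Wider ratios were seen in SLC2A5 and SLC2A12. SLC2A5, the fructose carrier of the apical membrane, gave 61.7, 88.3 and 51.8 CPM and was highest in CM, above IM by 1.43-fold (1.32 to 1.55), and CMT was below CM by 1.70-fold (1.56 to 1.87). SLC2A12, a glucose carrier that can respond to insulin, gave 19.4, 11.4 and 21.9 CPM and was lowest in CM, below IM by 1.70-fold (1.43 to 2.04), with CMT above CM by 1.93-fold (1.61 to 2.31). These are the SLC2 ratios farthest from 1 in those comparisons. SLC2A11, a less studied carrier of glucose and fructose, gave 306, 329.8 and 274 CPM and stayed within 2-fold in all comparisons. The intracellular carriers SLC2A6 and SLC2A8 gave 1.21, 1.22 and 1.28 CPM and 5.07, 5.71 and 3.93 CPM.

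In the SLC13 family, SLC13A4 differed from intact kidney in both castrated pools. The gene codes for a sodium-sulfate cotransporter and gave 18 counts in IM against 91 in CM and 96 in CMT, or 1.09, 4.81 and 7.25 CPM. IM was far below the other pools. CM was called higher than IM by 4.43-fold (2.65 to 7.80) and CMT higher than IM by 6.67-fold (4.005 to 11.7), while CMT over CM, at 1.51 (1.12 to 2.03), was not called. It was the one transporter with calls against IM in both castrated pools and none between them, a pattern that 0.252% of all compared genes showed.

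SLC13A1, the sulfate carrier of the proximal brush border, had another order. It gave 4471 counts in IM against 3871 in CM and 2350 in CMT, highest in IM, with CM below IM by 1.32-fold (1.26 to 1.38) and CMT below IM by 1.52-fold (1.45 to 1.60). Of the dicarboxylate carriers, apical SLC13A2 gave 139, 208 and 261 CPM and was lowest in IM, where CM over IM came to 1.496 (1.42 to 1.58) and CMT over IM to 1.87 (1.78 to 1.98). Basolateral SLC13A3 gave 285, 313 and 231 CPM, and CMT was its lowest pool, below IM by 1.24-fold (1.18 to 1.29). SLC13A5, which prefers citrate and is best known from liver, gave 115, 80.4 and 111 CPM and was lowest in CM, below IM by 1.43-fold (1.34 to 1.53), with CMT near IM at 0.969 (0.905 to 1.04). All 4 had intervals within 2-fold in every comparison.

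SLC2A2, SLC13A5 and SLC16A6, which is described below, are also hepatocyte genes, and liver markers differed between the pools. Of 6 compared hepatocyte markers 1 was called higher and 3 lower in CM against IM. The list summed to 388, 256 and 350.3 CPM, most of it from F2, which gave 237, 221 and 244 CPM and was not called. ALB, serum albumin, gave 118, 1.27 and 30.5 CPM and was called lower in CM than in IM, as were AFP and PLG. TTR, transthyretin, was the marker called higher, with 8.03, 25.9 and 58.6 CPM. FGB gave 4.65, 6.56 and 6.95 CPM and was not called, with CM over IM at 1.41 (1.05 to 1.90). No hepatocyte marker in the table was at 0 in all libraries. Their part in the 3 transporters' values was not tested.

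The SLC16 family had calls in both directions between CM and IM. SLC16A3, which exports lactate from glycolytic cells, gave 522 counts in IM against 1384 in CM and 478 in CMT, or 31.5, 73.2 and 36.1 CPM. CM was the high pool, called above IM by 2.32-fold (2.10 to 2.57). CMT was near IM, at 1.15 (1.01 to 1.30), and below CM by 2.03-fold (1.83 to 2.25), a ratio past 2 whose interval starts below it. Of the other SLC16 carriers of lactate and pyruvate, SLC16A1, the widespread one, gave 12.99, 14.3 and 14.1 CPM, and SLC16A7, which has a high affinity for pyruvate, gave 3.38, 2.86 and 3.40 CPM; all 3 intervals of each held 1 and lay within 2-fold.

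SLC16A3 is also a gene of activated leukocytes, and the summed level of immune markers was highest in the same pool. Of 8 compared immune markers 2 were called higher and 0 lower in CM against IM, and 0 higher and 2 lower in CMT against CM. The list summed to 59.2, 171 and 79.8 CPM, most of it in CM from IGJ, the joining chain of secreted antibodies, with 16.1, 102 and 21.8 CPM. PTPRC, the common leukocyte antigen, gave 13.6, 17.9 and 13.1 CPM and the macrophage receptor CSF1R 13.05, 25.5 and 26.1 CPM, highest in CMT. MZB1, the other marker called higher in CM, gave 0.966, 4.66 and 1.51 CPM and was not called in CMT against CM. The markers called lower in CMT than in CM were IGJ and CD79A, which gave 1.09, 2.86 and 0.604 CPM. Of the T cell receptor complex, CD3D gave 1.93, 4.28 and 3.10 CPM and was highest in CM. CD3E, of the same complex, gave 5.38, 4.76 and 5.52 CPM and was lowest in CM. The median log2 fold of the compared immune markers was 1.03 in CM against IM. No listed marker in the table was at 0 in all libraries. Their part in the SLC16A3 value was not tested.

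The 3 lower SLC16 genes had CM as their lowest pool. SLC16A6, a carrier linked to export of ketone bodies in the liver, gave 818 counts in IM against 388 in CM and 602 in CMT, or 49.4, 20.5 and 45.5 CPM, and CM was below IM by 2.41-fold (2.13 to 2.72). CMT came to 0.921 (0.827 to 1.02) of IM, and CMT over CM, at 2.22 (1.95 to 2.52), passed 2 while its interval did not. SLC16A10, a basolateral carrier of aromatic amino acids and thyroid hormone, gave 14.8, 4.66 and 8.54 CPM; CM was below IM by 3.18-fold (2.48 to 4.10). Its CMT pool lay between, above CM by 1.83-fold (1.38 to 2.45) and below IM by 1.73-fold (1.38 to 2.19). SLC16A13, another member of the family, gave 10.1, 2.59 and 5.29 CPM, with CM below IM by 3.89-fold (2.81 to 5.47). Its CMT pool was again between, above CM by 2.04-fold (1.40 to 3.002) and below IM by 1.91-fold (1.43 to 2.56).

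In RefSeq's table SLC16A13 overlaps its neighbour SLC16A11 and SLC16A6 overlaps ARSG, and reads from overlapping genes cannot be told apart when the strand setting is unknown. The called genes SLC13A4 and SLC16A10 each overlap a long noncoding RNA gene there, for which no counts were found. SLC16A11 gave 2, 1 and 5 counts, too few to compare. ARSG, a lysosomal sulfatase, gave 482, 282 and 225 counts and was not called. Scaled for depth it was lowest in CM, as SLC16A6 was, with CM over IM at 0.512 (0.441 to 0.595), CMT over IM at 0.584 and CMT over CM at 1.14.

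The remaining SLC16 genes were not called. SLC16A9, for which carnitine transport has been described, gave 8.58, 16.9 and 9.52 CPM and came nearest to a call, with CM over IM at 1.97 (1.61 to 2.42) and CMT over IM at 1.11 (0.866 to 1.42). SLC16A12, a creatine carrier, gave 124, 150.1 and 119 CPM, highest in CM at 1.21 (1.14 to 1.28) of IM. The family members SLC16A4 and SLC16A5, whose roles in kidney are less clear, gave 100.1, 100.1 and 90.2 CPM and 122, 142 and 153 CPM and stayed within 2-fold throughout.

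No family sum differed by more than 1.22-fold in any comparison. SLC5 reads came to 2278, 1874 and 2273 CPM, so CM was below IM by 1.22-fold (1.20 to 1.23). The sums of SLC2 were 459, 500.4 and 430.1 CPM, those of SLC13 were 811, 811 and 788, and those of SLC16 were 529, 568 and 523. A sum follows the members with most reads, which longer genes gain: SLC5A12 took 58.7%, 49.1% and 56.7% of SLC5 reads in IM, CM and CMT. SLC5A8 and SLC5A10 together took little of it, SLC5A8 0.00530%, 1.38% and 0.103% and SLC5A10 1.62%, 6.62% and 3.19%. In SLC13, the share of SLC13A1 went from 33.3% in IM to 22.5% in CMT and that of SLC13A2 from 17.2% to 33.1%.

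**Figure D4:**
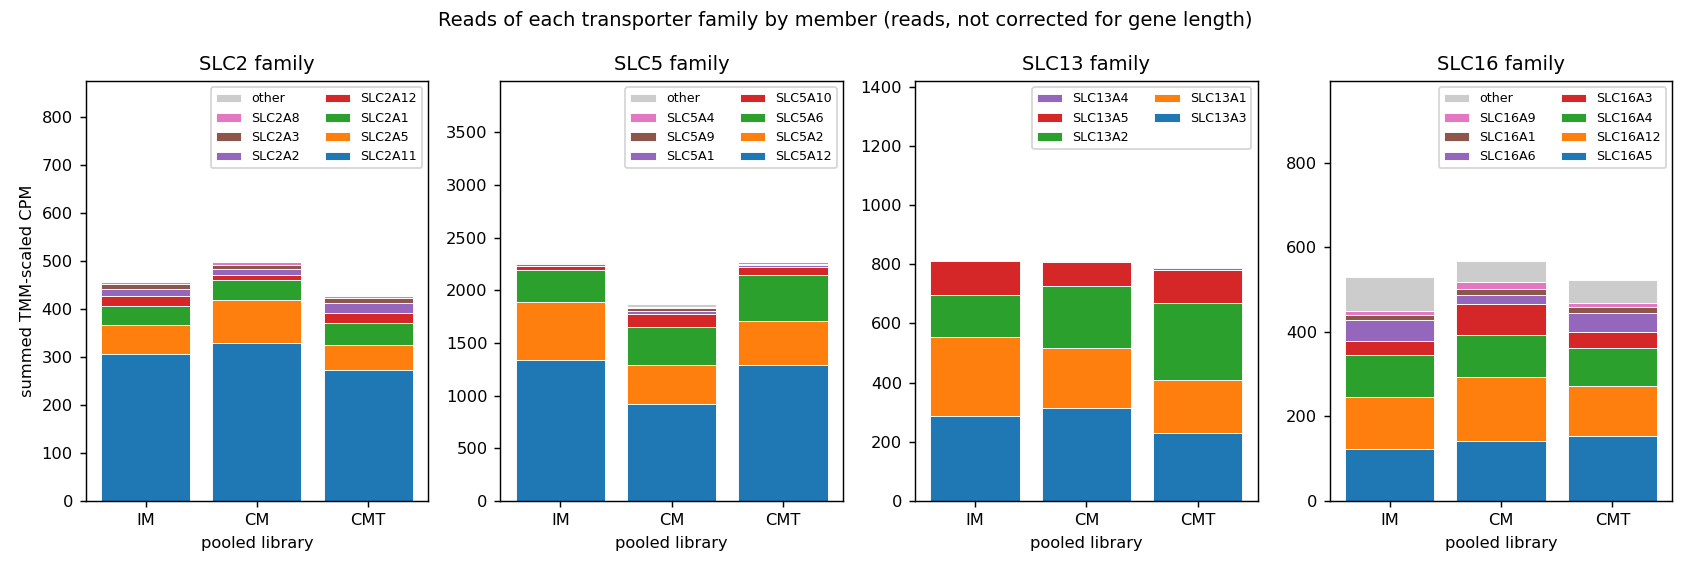
Summed TMM-scaled CPM of each family in each pooled library, stacked by member, with the vertical axis of each panel starting at 0 and reads not corrected for gene length. The SLC5 column is lowest in CM at 1874 CPM, and the SLC13 columns are nearly equal in height while the parts of SLC13A1 and SLC13A2 differ.

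The remaining 8 transporters were too low to compare. SLC2A7, SLC5A5, the iodide carrier of the thyroid, and SLC5A7, the choline carrier of cholinergic neurons, had 0 counts in all libraries, where 3 counts would have been 0.181, 0.159 and 0.227 CPM. SLC2A4, the insulin-responsive carrier of muscle and fat, gave 3, 3 and 3 counts, and SLC2A13, a proton-coupled inositol carrier, 11, 15 and 8. SLC16A8, SLC16A11 and SLC16A14 gave 1, 2 and 4, 2, 1 and 5 and 1, 7 and 2 counts. At the filter, SLC2A6 lay just inside with a mean of 1.24 CPM and SLC2A13 just outside with 0.687 CPM.

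Genes that work with these carriers were read from 8 lists, transporters of the 4 families left out. Each gene counted once, 92 were compared. CM against IM called 4 of them (4.35%, beside 2.71% of all compared genes), CMT against CM called 7 (7.61%, beside 2.95%), and 3 were called when CMT was set against IM (3.26%, beside 1.5%). The lists too were chosen with earlier results of these data known, so these shares are descriptive and test nothing. In the list of partner proteins and regulators, 0 of 18 genes were called in any comparison. From that list, and named after their values were seen, BSG, the chaperone that brings SLC16A1 and SLC16A3 to the membrane, gave 896, 811 and 930.3 CPM. PDZK1IP1, a small membrane protein that SLC5A2 needs for full activity, gave 129, 229.5 and 176 CPM, with CM over IM at 1.79 (1.69 to 1.88), the opposite side of 1 from SLC5A2. Nor was any gene called among 13 of citrate and dicarboxylate metabolism and 6 of urate handling.

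Enzymes of glucose and lactate use were called mainly in the replaced pool. Of 17 glucose and fructose genes 0 were called between CM and IM, and 2 were higher in CMT than in CM. PCK1, of gluconeogenesis, gave 6824, 5387 and 13703 CPM, with CMT called above CM by 2.54-fold (2.52 to 2.56). Of 16 lactate and ketone body genes 1 was lower in CM than in IM, PDK4, which restrains pyruvate oxidation, with 1753 counts in IM against 770 in CM and 4952 in CMT, lower by 2.60-fold (2.39 to 2.83). In CMT 2 were higher than in CM and the same 2 higher than in IM. PDHB, a subunit of pyruvate dehydrogenase, gave 213, 142 and 773 CPM, above CM by 5.44-fold (5.21 to 5.67) and above IM by 3.63-fold (3.49 to 3.77), and PDK4 exceeded IM by 3.53-fold (3.35 to 3.73).

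The substrates of single carriers had their own lists. Of 8 inositol and osmolyte genes, IMPA2, an inositol monophosphatase, was the one called: it gave 450 counts in IM against 1111 in CM and 292 in CMT, and CMT was called below CM by 2.66-fold (2.34 to 3.04). Of 6 thyroid hormone and iodide genes, SLCO4C1, an organic anion transporter that carries thyroid hormone, gave 74.7, 15.1 and 63.7 CPM, and CM was called below IM by 4.93-fold (4.34 to 5.63). TTR, the plasma carrier transthyretin, gave 8.03, 25.9 and 58.6 CPM, and CM was called above IM by 3.22-fold (2.65 to 3.93). Both were called higher in CMT than in CM, and TTR higher in CMT than in IM. Of 10 creatine and carnitine genes, BBOX1, the last enzyme of carnitine synthesis, gave 227, 105 and 169 CPM, with CM called below IM by 2.17-fold (2.05 to 2.29), with 9 others not called. Over the 8 lists the median log2 fold ran from -0.23 to 0.08 in CM against IM, from -0.03 to 0.56 in CMT against CM and from -0.13 to 0.11 in CMT against IM.

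**Figure D5:**
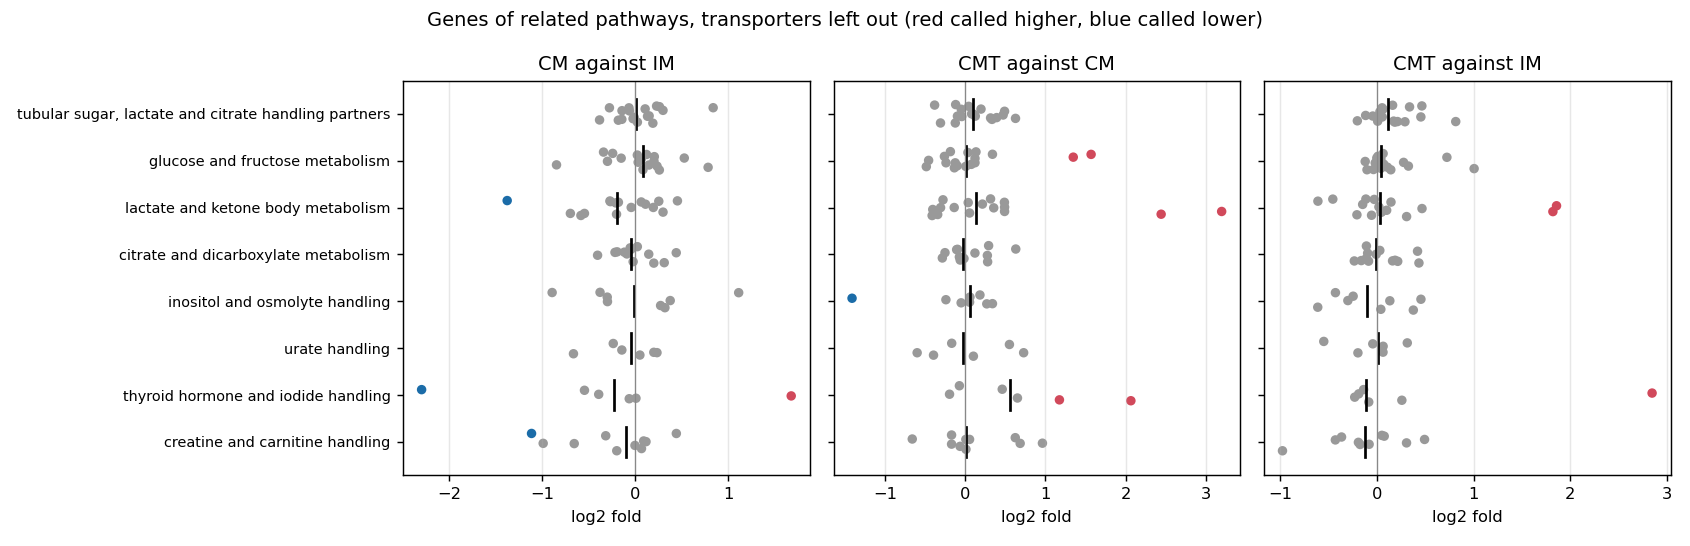
Log2 fold (horizontal axis, prior count of 2) of each compared gene of the 8 pathway lists, transporters of the 4 families left out, with 1 panel per comparison and a black bar at each list's median; vertical scatter within a list carries no value. Grey dots were not called; in the thyroid hormone and iodide list 2 of 6 genes are coloured in CM against IM, and the partner list at the top has 0 of 18 genes coloured in each panel.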

How the data were processed

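RNA was extracted with TRIzol and libraries were made with an Ion Total RNA-Seq kit, per the labels' protocols; the design text names an Illumina sequencer and triplicates instead, and this was not settled. The deposited values are raw counts per gene, 1 column per pool. FastQC is the single tool in the submitters' processing notes; the aligner, counter, strand setting, build and annotation are not given in the sources used here, and positions are therefore left out. A nameless column of 4 ratios was not used.

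Counts were scaled with TMM factors (1.01 in IM, 1.02 in CM and 0.973 in CMT; edgeR 4.0.16, R 4.3.3). Intervals are exact Clopper-Pearson intervals of the share of counts (scipy 1.17.1), covering counting error only, since reads are not independent molecules. Transporters and lists were chosen with earlier results of these data known. Every transporter is in the counts, and some genes that the rule names are not reported here; other genes were named from the lists, at most 2 higher and 2 lower per comparison, unless stated. RefSeq's table of assembly Sscrofa11.1 gave symbols for 1556 of 19902 numbered rows, used for the lists, and the order of neighbours. Promoter and protein sequences were not used here. The 8 alternatives covered 3 scalings, 2 filters, 2 call rules and thinning.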

Additional observations from a re-analysis of the deposited data

How the results depend on the processing

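Under 8 alternatives, 95 of 99 transporter ratios (33 genes in 3 comparisons) kept their call wherever the alternative gave a value, and no called ratio changed sign. The other 4 were gained when a ratio of 2 was enough without its interval: SLC5A9 in CM against IM (2.07), and SLC16A6 (2.22), SLC16A13 (2.04) and SLC16A3 (0.493) in CMT against CM. That rule made 2 transporters higher and 2 lower in CMT against CM, instead of 0 and 1, and it also raised the share of all compared genes called higher there to 3.87%. With a filter of mean 5 CPM, 29 transporters were compared and SLC13A4 was left out, so that 1 instead of 2 were higher in CMT against IM and 3 instead of 4 in CM against IM. Neither total counts, DESeq2 size factors, library sizes without mitochondrial and ribosomal RNA genes, no filter, a 99% interval nor thinning to the smallest library changed a count of called transporters, and no family sum was called under any of the 8. The median log2 fold of all compared genes in CMT against CM was -0.07 with total counts and -0.004 with TMM. Leaving out a replicate was not possible with 1 library per group. No paired analysis was possible because each group has 1 pooled library. Depth limits the low genes most: SLC5A8 rests on 2 counts in IM and SLC13A4 on 18.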

Other observations

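Some rows with numbered identifiers fall outside the naming rule although RefSeq's table pairs them with symbols of these families. A second row paired with SLC2A1 gave 331 counts in IM against 441 in CM and 305 in CMT, and CM over IM came to 1.17 (1.01 to 1.35), beside 1.04 (0.940 to 1.16) for the row named SLC2A1. A second row paired with SLC2A7 had 0 counts throughout. A row paired with SLC2A10 gave 16, 13 and 8 counts. A row paired with SLC2A9, the urate carrier of the proximal tubule, gave 0, 2 and 0 counts. None of these 4 rows had an interval that lay wholly beyond 2-fold.

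The genes next to the 7 called transporters were read as well, using RefSeq's order of protein-coding genes. They number 13 outside the 4 families, of which 10 were compared, and 0 of the 10 were called in any comparison. Among all compared genes the called shares were 2.71% (CM over IM), 2.95% (CMT over CM) and 1.5% (CMT over IM). With shares this small, 0 of 10 cannot tell these neighbours from other genes. ARSG, whose values are given above beside SLC16A6, is 1 of the 10. Beside SLC5A8, UTP20, a ribosome assembly factor named after its values were seen, gave 503, 706 and 372 counts, with CM over IM at 1.23. ANO4, which overlaps SLC5A8 in that table, had 0 counts throughout.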
